A study of Mus musculus with 6 samples.

Results

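Interferon-stimulated genes were examined in the livers of mice after vertical sleeve gastrectomy (VSG), an operation in which most of the stomach is taken out, and after a sham operation. The list held 39 genes named by symbol, and its members were taken by symbol from a list drawn up with earlier results of these data known, so that counts over the list describe it and are not independent evidence of its direction. All 39 were found among the 55385 genes of the count table, and all 39 passed the filter on low counts that left 14454 genes to be tested. Each library came from about 40 mg of liver of 1 male wild-type C57BL/6 mouse that was put on a high-fat diet (HFD) at 6 to 8 weeks of age. The mice of both groups ate this diet for 10 weeks, were operated on, and stayed on it for a further 12 weeks. There were 3 sham livers, numbered 1 to 3 in the labels, and 3 VSG livers, numbered 4 to 6. No lean or unoperated mice were in the comparison, and the mice of both groups had eaten the diet before the operation. The comparison asked how VSG changed hepatic transcripts in diet-fed mice.

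Interferons are secreted proteins that cells release on sensing viral or misplaced nucleic acid. Type I interferons (alpha, beta) act through a receptor of the subunits IFNAR1 and IFNAR2, whose kinases JAK1 and TYK2 phosphorylate STAT proteins, among them STAT2, which works with IRF9 in the complex ISGF3 that binds the interferon-stimulated response element (ISRE) of target genes. Interferon gamma acts through IFNGR1 and IFNGR2 and leads to binding at the gamma-activated site (GAS). In the liver, hepatocytes, Kupffer cells and endothelial cells all carry these receptors, and the targets block viral replication, mark and break down pathogen vacuoles, or damp the response itself.

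To show what the promoters of these genes hold, the RefSeq promoters (GRCm38.p6, 250 bases before to 50 after each start) were searched on both strands for the ISRE core GAAANNGAAA and the GAS core TTCNNNGAA. Of the 39 genes, 29 had a promoter in the table, and the entries without one were Zbp1, Oas2, Usp18, Mx1, Mx2, Gbp6, Iigp1, Ifi27, Rtp4 and Parp14. The windows below are 60 bases each, written 5′ to 3′ in the direction of the gene's transcription, with the ISRE core in capitals (TTTCNNTTTC where it lies on the other strand, and runs of overlapping cores as 1 block). They were picked among the genes with a core and stand for steep falls (Ifit1, Ifit3, Ifit3b, Isg15, Rsad2), for GTPases with smaller ones (Gbp7, Igtp, Irgm2), and for Stat2, which did not pass the test. Ifi44, which also fell steeply, had a promoter without the core.
Ifit1: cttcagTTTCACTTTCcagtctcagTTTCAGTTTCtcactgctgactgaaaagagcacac
Ifit3: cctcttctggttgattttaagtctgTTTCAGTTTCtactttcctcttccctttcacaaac
Ifit3b: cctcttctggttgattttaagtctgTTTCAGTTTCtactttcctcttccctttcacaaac
Isg15: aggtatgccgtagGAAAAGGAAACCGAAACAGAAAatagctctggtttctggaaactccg
Rsad2: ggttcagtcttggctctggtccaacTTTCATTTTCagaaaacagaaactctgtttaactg
Gbp7: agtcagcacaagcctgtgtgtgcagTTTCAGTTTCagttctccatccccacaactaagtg
Igtp: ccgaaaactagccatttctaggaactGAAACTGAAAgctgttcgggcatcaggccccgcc
Irgm2: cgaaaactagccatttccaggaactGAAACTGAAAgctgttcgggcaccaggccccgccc
Stat2: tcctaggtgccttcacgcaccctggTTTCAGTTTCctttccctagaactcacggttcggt

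These windows lay at chr19:34640779-34640838 for Ifit1, chr19:34583382-34583441 for Ifit3, chr19:34607778-34607837 for Ifit3b, chr4:156200850-156200909 for Isg15, chr12:26456538-26456597 for Rsad2, chr3:142530258-142530317 for Gbp7, chr11:58199496-58199555 for Igtp, chr11:58214888-58214947 for Irgm2 and chr10:128270251-128270310 for Stat2. The genes Isg15 and Rsad2 are on the minus strand and the others shown on the plus strand. The windows of Ifit3 and Ifit3b held the same letters, as the genes are neighbouring copies, and those of Igtp and Irgm2, also neighbours, held nearly the same letters with the core at 34 and 64 bases before their starts. The ISRE core was present in the promoter of 20 of the 29 genes (69.0%), against 1079 of all 27025 genes with a promoter in the table (3.99%). It was present in 11 of the 16 genes that were lower after VSG (68.8%) and in 9 of the 13 that did not pass the test (69.2%), shares that lay close together. The GAS core was present in 9 of the 29 (31.0%), against 9.55% of all genes. A match is a description of the letters and not a bound site.

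Most of these genes were lower after VSG, and none was higher. Of the 39 genes, 21 fell (adjusted p under 0.05, 53.8%), against 7.87% of all tested genes, and 0 were higher, against 6.79%. Adjusted p-values are from edgeR's quasi-likelihood test with Benjamini-Hochberg adjustment over all 14454 genes unless another tool is named, and "lower", "higher" and "fell" refer to that threshold. At an unadjusted p under 0.05, 27 were lower and 0 higher, against 17.0% lower and 16.9% higher of all tested genes. DESeq2 called 26 lower and 0 higher, with 1772 lower and 1516 higher over all tested genes, and limma-voom 19 lower and 0 higher, with 1050 lower and 808 higher. The median log2 fold change (VSG over sham) was -0.90 over the 39 genes and 0.03 over all tested genes. The range ran from -2.72 for Ifit1 to 0.38 for Irf1, with 34 genes below 0 and 5 above. Of the 21 genes that fell, 7 were at least 4-fold lower, 15 at least 2-fold lower and 6 less than 2-fold lower. In 26 of the 39 genes every VSG library was below every sham library (66.7%), against 19.8% of all tested genes, and in 0 genes was every VSG library above, against 19.8%, with 39.7% of all tested genes apart in one direction or the other. The plot of fold changes shows the order within each family.

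**Figure D1:**
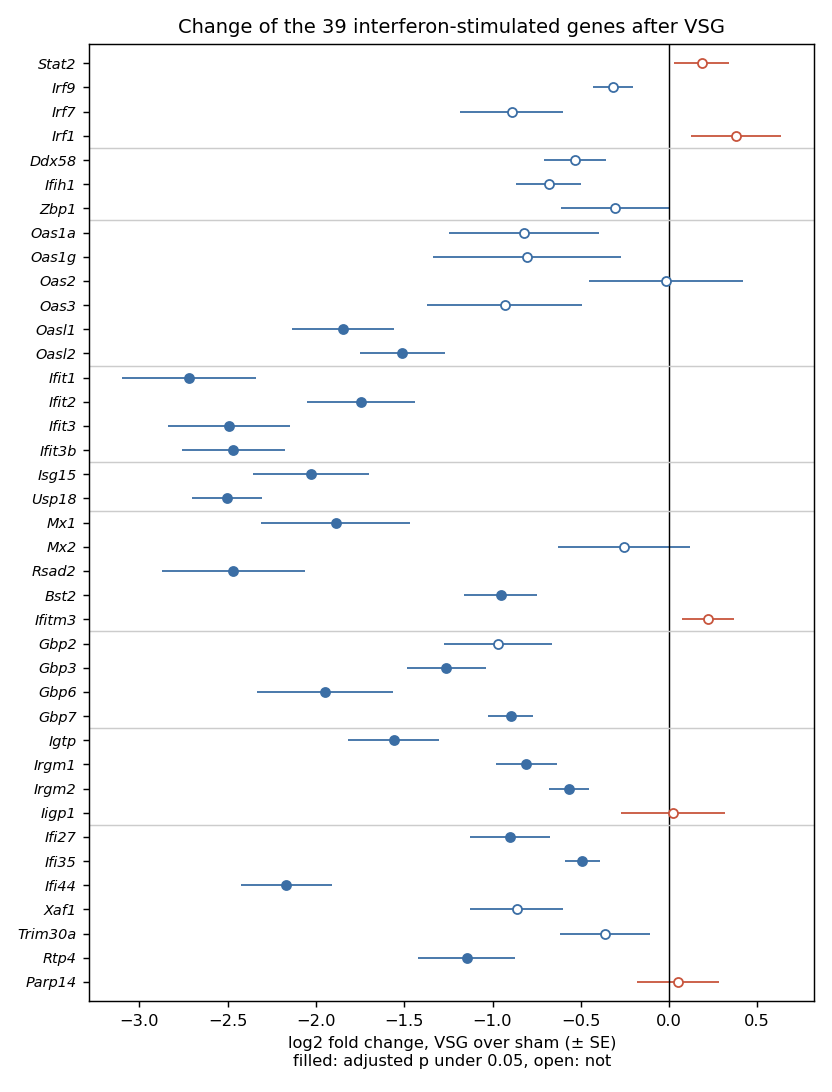
Log2 fold change of VSG over sham (x axis, no unit, bars ± SE) for each of the 39 interferon-stimulated genes, grouped by role and with filled points for an adjusted p under 0.05. The 21 filled points all lie left of 0, from -2.72 (Ifit1) to -0.49 (Ifi35), and the 5 genes right of 0 are all open.

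The libraries held 22804397 to 24191778 counts, and the lowest count of any of the 39 genes in any library was 18 (Gbp6 in VSG 5). The share of counts from mitochondrial genes was 5.59% to 6.58% in sham and 4.14% to 5.01% in VSG, without overlap, and its part in the results was not tested. The 8 hepatocyte markers were abundant in all libraries, with a summed CPM (counts scaled to a common library size with edgeR's TMM factors) mostly that of Alb, the albumin gene, from 64444 to 100599 in sham and 61033 to 83974 in VSG. These are bulk tissues, so fewer cells of a type and less RNA per cell cannot be told apart in any result here. Across all genes 981 were higher and 1137 lower after VSG (14.7% in all). With total-count scaling in place of TMM the split was 486 higher and 1512 lower, the median of all genes moved to -0.11, and of the 39 genes 23 were lower and 0 higher.

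The IFIT family and the ISG15 system had the lowest medians of the 9 role groups, at log2 -2.48 and -2.27, and all 6 of their genes fell (all tested genes: 7.87%). Usp18 (ENSMUSG00000030107.10, GRCm38 chr6:121245906-121270917, plus strand) encodes the protease that strips the ubiquitin-like ISG15 from proteins and that also binds IFNAR2 and restrains its signalling. It measured 40.4, 27.9 and 26.4 CPM in sham livers 1 to 3 and 5.25, 6.24 and 5.20 CPM in VSG livers 4 to 6. The lowest sham library stood at 4.22 times the highest VSG library, the widest gap of the 21 genes, and the fold change was 5.66-fold lower (log2 -2.50, SE 0.198, adjusted p = 0.00268). Isg15 itself (chr4:156199455-156200796, minus strand), the gene of the modifier that USP18 removes, measured 16.2, 7.99 and 9.12 CPM in sham and 2.49, 3.46 and 2.19 CPM in VSG (log2 -2.03, SE 0.328, adjusted p = 0.0159). Its sham 1 value was far above the other sham values, and all 3 sham values were above the VSG ones.

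The IFIT proteins bind foreign RNA and block its translation, and their 4 genes lie side by side on chromosome 19 (GRCm38 chr19:34550694-34650009 from the start of Ifit2 to the end of Ifit1). Ifit1, which recognises RNA without a host cap, measured 65.0, 31.8 and 27.0 CPM in sham and 4.80, 7.74 and 6.25 CPM in VSG. It had the steepest fall of the list at 6.59-fold (log2 -2.72, SE 0.378, adjusted p = 0.0112). Ifit2, an IFIT also tied to cell death, measured 31.5, 13.1 and 23.2 CPM in sham against 6.79, 7.05 and 6.39 CPM in VSG (log2 -1.74, adjusted p = 0.0188). The VSG values of Ifit2 lay close together, while its sham values spanned more than their own lowest value. Ifit3 measured 41.7, 23.2 and 22.3 CPM in sham against 3.26, 6.20 and 6.01 CPM in VSG (log2 -2.49, adjusted p = 0.0111). Its close copy Ifit3b measured 11.4, 6.76 and 6.57 CPM in sham against 1.18, 1.62 and 1.67 CPM in VSG (log2 -2.47, adjusted p = 0.00792). In both, VSG 4 was the lowest library and sham 1 the highest. Of the 50-base stretches of Ifit3b transcripts 44.5% also occur in Ifit3, and 51.2% the other way, so the division of reads between these copies is uncertain.

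**Figure D2:**
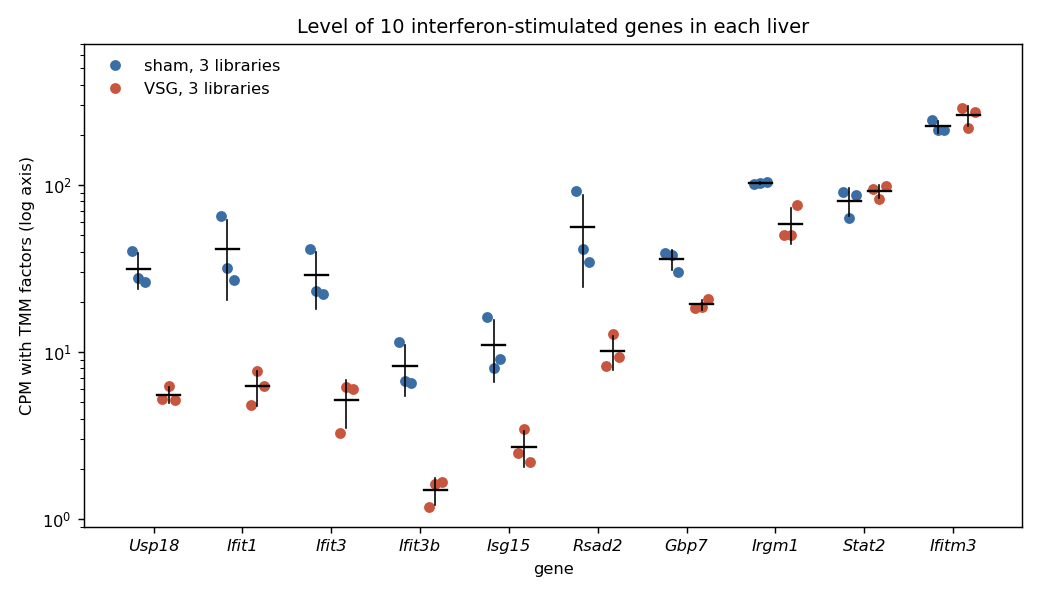
Level of 10 of the genes in each liver, in CPM with TMM factors on a log axis, with blue points for the 3 sham and red points for the 3 VSG libraries, a horizontal bar at the mean and a vertical bar of ± 1 SD. Usp18, the 3 IFIT genes shown, Isg15 and Rsad2 lie several-fold lower in every VSG liver (Usp18 5.20 to 6.24 against 26.4 to 40.4 CPM), Gbp7 and Irgm1 lie less far below, and Stat2 and Ifitm3 overlap between the groups.

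Among 5 genes grouped as antiviral effectors, 3 fell (all tested genes: 7.87%). Only their transcripts were measured, not protein or antiviral activity. Rsad2 (viperin, chr12:26442746-26456452, minus strand), which makes a chain-terminating nucleotide that stops viral polymerases, measured 92.4, 41.3 and 34.8 CPM in sham and 8.24, 12.8 and 9.40 CPM in VSG (5.54-fold lower, log2 -2.47, SE 0.405, adjusted p = 0.0165). Mx1, a gene of the dynamin-like GTPase family, measured 14.3, 4.39 and 7.71 CPM in sham and 2.53, 2.35 and 2.24 CPM in VSG (log2 -1.89, adjusted p = 0.0327). Bst2 (tetherin), which holds budding virions at the cell surface, measured 90.5, 55.1 and 73.4 CPM in sham and 42.3, 39.9 and 30.9 CPM in VSG (log2 -0.95, adjusted p = 0.0301). The 3 groups of sham values were each led by sham 1, by the widest margin in Mx1 and Rsad2. Mx1 did not pass with limma-voom or with limma on log2(FPKM + 1), and Mx1 and Bst2 each passed in 2 of the 6 fits that left out a library. Ifitm3, a membrane protein that hinders viral entry and the most abundant of the 39 genes, did not follow, at 246, 213 and 215 CPM in sham and 290, 220 and 275 CPM in VSG (log2 0.22, adjusted p = 0.321). Mx2, annotated as a polymorphic pseudogene, measured a log2 fold change of -0.26 (adjusted p = 0.654).

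In the family of 2′-5′ oligoadenylate synthetases (OAS), whose product switches on RNase L, the 2 OAS-like genes fell (all tested genes: 7.87%) and the other 4 did not pass. Oasl1, which has lost the synthetase activity and restrains the translation of Irf7, measured 32.3, 14.7 and 20.6 CPM in sham and 7.01, 6.03 and 5.72 CPM in VSG (3.60-fold lower, log2 -1.85, SE 0.291, adjusted p = 0.0153). Oasl2 measured 31.9, 17.9 and 30.8 CPM in sham and 10.9, 8.38 and 9.02 CPM in VSG (log2 -1.51, adjusted p = 0.0156). The sham and VSG values of both were well apart. Oas1a, Oas1g and Oas3 measured log2 fold changes of -0.82, -0.81 and -0.93 with SEs of 0.424, 0.534 and 0.440, and Oas2 of -0.01 (adjusted p from 0.187 to 0.984). These 4 varied among the sham livers themselves, as in Oas2, which measured 16.5, 5.76 and 14.8 CPM in sham and 16.1, 7.31 and 13.4 CPM in VSG. Oas1a and Oas1g share 57.6% and 45.2% of their 50-base stretches with each other, so their separate values are uncertain.

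The guanylate-binding proteins and the immunity-related GTPases, large GTPases that gather on the vacuoles of intracellular pathogens and that interferon gamma induces strongly, had median log2 fold changes of -1.12 and -0.69. Of 4 guanylate-binding proteins, 3 fell (all tested genes: 7.87%) and every VSG library was below every sham library in all 4 (all tested genes: 19.8%). Gbp7 had the tightest values, at 39.4, 38.0 and 30.4 CPM in sham and 18.5, 18.6 and 20.8 CPM in VSG (1.86-fold lower, log2 -0.90, SE 0.128, adjusted p = 0.0118). Gbp3 measured 29.5, 21.7 and 26 CPM in sham and 13, 7.52 and 11.6 CPM in VSG (log2 -1.26, adjusted p = 0.0194). Gbp6 measured 6.98, 5.12 and 6.46 CPM in sham and 1.67, 0.769 and 2.39 CPM in VSG (log2 -1.95, adjusted p = 0.0247). In both, VSG 5 was the lowest library. Gbp6 shares exons with the gene model Gm43302 on the same strand (29.0% of its exon bases), and 65.0% of its 50-base stretches occur there and 45.9% in Gbp10, so its level is uncertain. The call of Gbp6 held in 1 of the 6 fits that each left out a library (without VSG 5). Gbp2 measured a log2 fold change of -0.97 and did not pass (adjusted p = 0.0774), and it was called lower by DESeq2, with total-count scaling, when every gene with at least 1 count was kept, and without VSG 4.

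Of 4 immunity-related GTPases, the 3 regulatory members, which guard the host's own membranes and hold the effector members in check, fell (all tested genes: 7.87%). Igtp measured 45.8, 75.7 and 72.4 CPM in sham and 17.7, 19.4 and 28.7 CPM in VSG (2.95-fold lower, log2 -1.56, SE 0.257, adjusted p = 0.0165). Unlike most of the list, it was lowest in sham 1 among the sham livers. Irgm1 measured 102, 103 and 104 CPM in sham and 50.4, 50.5 and 75.5 CPM in VSG (log2 -0.81, adjusted p = 0.0294). Irgm2 measured 108, 100.1 and 112 CPM in sham and 75.0, 63.2 and 77.7 CPM in VSG (log2 -0.57, adjusted p = 0.0256). The sham values of Irgm1 hardly differed, and its VSG 6 value stood above the other VSG values. With 1 library left out, the call of Irgm2 held in 1 of 6 fits (without VSG 5) and that of Irgm1 in 2. Igtp and Irgm2 share 162 exon bases on the same strand (chr11, 8.01% of the Igtp exons). The effector member Iigp1 measured 419, 432 and 361 CPM in sham and 249, 403 and 578 CPM in VSG, so that the VSG livers spread on both sides of the sham livers (log2 0.02, SE 0.294, adjusted p = 0.964).

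Of 7 further interferon-induced genes, 4 fell (all tested genes: 7.87%). Ifi44, a cytoplasmic protein of the interferon response, measured 24.3, 12.7 and 15.8 CPM in sham and 4.25, 3.68 and 3.82 CPM in VSG (4.50-fold lower, log2 -2.17, SE 0.257, adjusted p = 0.00792). Rtp4, a chaperone of membrane receptors, measured 43.4, 21.2 and 25.6 CPM in sham and 12.9, 12.2 and 15.7 CPM in VSG (log2 -1.15, adjusted p = 0.0387). Both were highest in sham 1, and Ifi44 kept the wider gap between the groups, at 2.99 times against 1.35 times. Rtp4 did not pass with limma-voom or with limma on log2(FPKM + 1), and it shares 13.9% of its exon bases with the gene model Gm45338. Ifi27, a small hydrophobic membrane protein, measured 78, 49.8 and 73.7 CPM in sham and 45.8, 31.4 and 30.7 CPM in VSG (log2 -0.90, adjusted p = 0.0432), and Ifi35, a binding partner of Nmi, measured 21.7, 19.9 and 20.9 CPM in sham and 14.2, 14.3 and 16.0 CPM in VSG (log2 -0.49, adjusted p = 0.0266). The groups of Ifi27 came closest of the 21 genes, with a gap of 1.09 times, and it did not pass with limma on log2(FPKM + 1). Ifi35 passed in 1 of the 6 fits that left out a library (without VSG 5), and Rtp4 and Ifi27 in 2 each. Xaf1, which binds the apoptosis inhibitor XIAP, measured -0.86 (adjusted p = 0.0719), Trim30a, a brake on Toll-like receptor signalling, -0.36 (adjusted p = 0.345), and the ADP-ribosyltransferase Parp14 0.05 (adjusted p = 0.901) as log2 fold changes. Xaf1 was called lower by DESeq2 and by edgeR when every gene with at least 1 count was kept.

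The genes that sense nucleic acid had a median log2 fold change of -0.53 and those that carry the interferon signal one of -0.07. None of 4 signalling genes and transcription factors and none of 3 sensors passed edgeR's test in either direction, while at an unadjusted p under 0.05 there were 2 lower and 0 higher in each group (all tested genes: 17.0% and 16.9%). DESeq2 called Irf7, Ddx58 and Ifih1 lower and limma-voom none, and edgeR called Irf7 and Ifih1 lower when every gene with at least 1 count was kept, and Ifih1 with total-count scaling. Irf7, the factor that amplifies type I interferon production, measured 72.0, 37.7 and 61.7 CPM in sham and 38.3, 21.5 and 32.8 CPM in VSG, with VSG 4 just above the lowest sham value (log2 -0.89, SE 0.291, adjusted p = 0.0845). Irf9, the DNA-binding subunit of ISGF3, measured 59.3, 48.3 and 52.5 CPM in sham and 41.0, 40.5 and 47.0 CPM in VSG (log2 -0.32, adjusted p = 0.101). Stat2, its partner, measured 91.5, 63.7 and 86.7 CPM in sham and 94.2, 82.6 and 98.3 CPM in VSG (log2 0.18, SE 0.158, adjusted p = 0.435), and Irf1, the factor typical of interferon gamma, measured 40.5, 22.2 and 40.9 CPM in sham and 54.1, 37.0 and 44.0 CPM in VSG (log2 0.38, adjusted p = 0.330). Irf9 was below sham in each VSG liver, and the groups of Stat2 and Irf1 overlapped. Of the sensors, the long RNA sensor Ifih1 (MDA5) came nearest to the threshold, at 89.4, 68.4 and 61.2 CPM in sham and 38.2, 44.6 and 53.7 CPM in VSG (log2 -0.68, adjusted p = 0.0515). The short RNA sensor Ddx58 (RIG-I) measured a log2 fold change of -0.53 (adjusted p = 0.0846) and the Z-form nucleic acid sensor Zbp1 of -0.30 (adjusted p = 0.507).

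Levels between genes can be compared only per length. By mean FPKM over the 6 libraries (the TMM-scaled CPM divided by the gene length in kilobases that the deposited table gives), the 5 most abundant of the 39 genes were Ifitm3 at 359, Iigp1 at 69.9, Bst2 at 61.3, Ifi27 at 35.1 and Irgm2 at 24.2 FPKM. The first and the second of these did not pass the test and the other 3 fell. Usp18 went from 11.3 to 1.99 FPKM and Ifit1 from 15.5 to 2.36 FPKM, and the lowest levels were those of Gbp6 (1.04 and 0.270 FPKM) and Oas3 (0.926 and 0.487 FPKM).

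The livers of 1 group also differed among themselves across the list. The median over the 39 genes of each library's log2 ratio to the sham mean was 0.33, -0.37 and -0.01 in sham 1 to 3 and -0.79, -1.11 and -0.93 in VSG 4 to 6. Sham 1 was the highest sham liver in 32 of the 39 genes and in 18 of the 21 that fell, and sham 2 the lowest in 28 of the 39. VSG 5 was the lowest VSG liver in 20 of the 39 genes. It was the lowest in 14 of the 18 genes that did not pass the test and in 6 of the 21 that fell, as the heatmap by library shows.

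**Figure D3:**
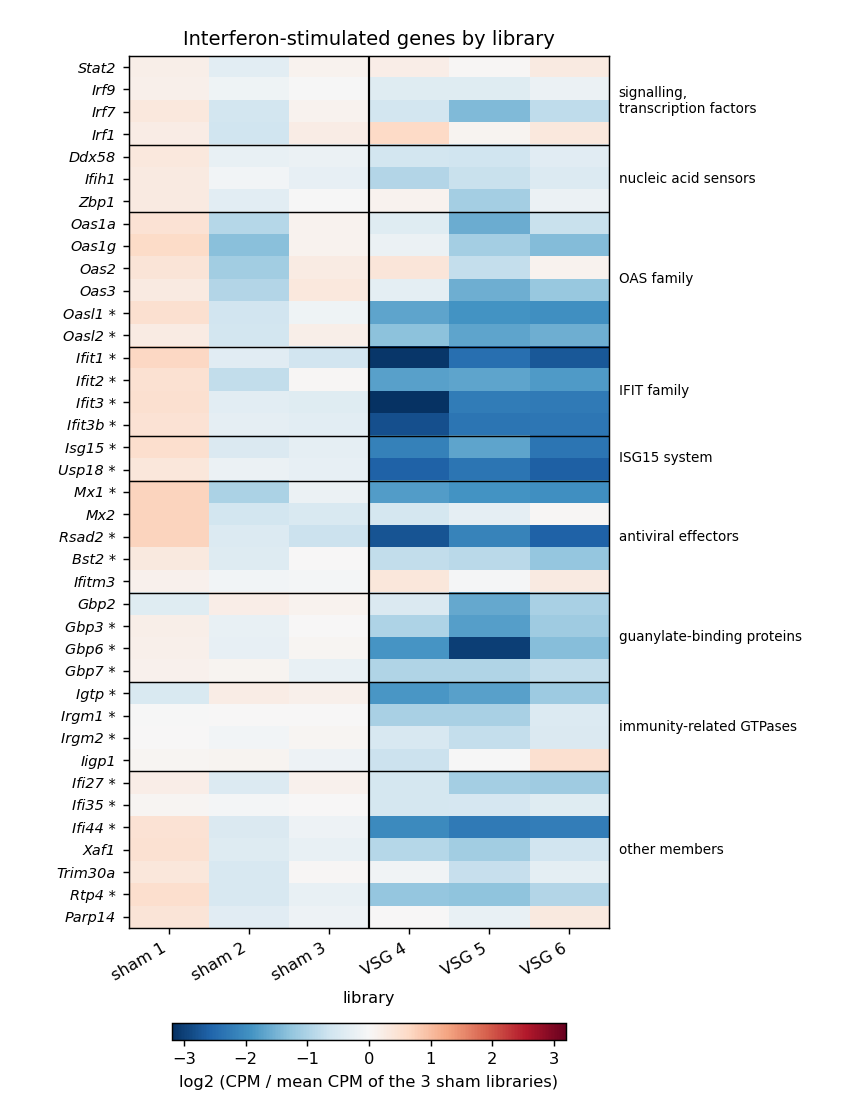
Log2 ratio of each library's CPM to the mean of the 3 sham libraries (colour, blue below and red above) for the 39 genes (rows, grouped by role, asterisk for an adjusted p under 0.05) in 6 livers (columns). The darkest cells are Ifit3 and Ifit1 in VSG 4 (-3.16 and -3.11) and Gbp6 in VSG 5 (-3.01), and sham 1 is the reddest sham column with a median of 0.33.

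The number of genes that passed depended on which liver was left out. Without sham 3, 7 of the 39 genes were lower (Ifit1, Ifit3, Ifit3b, Usp18, Rsad2, Gbp7 and Ifi44), and without VSG 6, 4 were (Ifit3b, Usp18, Igtp and Irgm1), while the lower calls over all tested genes went from 1137 to 111 and 120. Without sham 1, sham 2, VSG 4 or VSG 5 there were 15, 17, 15 and 18. Of the 21 genes, 2 passed in all 6 of these fits, 11 in 4 or 5 of them and 8 in 1 or 2. The 8 were Gbp6, Irgm2 and Ifi35, with 1 each, and Mx1, Bst2, Irgm1, Ifi27 and Rtp4, with 2 each, and their adjusted p reached up to 0.149. The 21 genes stayed below 0 in all 13 alternative analyses, with Usp18 and Ifit3b under an adjusted p of 0.05 in all of them (the largest 0.0240 and 0.0463). The median of the list stayed between -1.12 and -0.73.

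A list of 90 further genes of interferon production, signalling and response, none of them among the 39, gave the setting. It held 76 tested genes, of which 5 were higher and 9 lower (11.8%), against 6.79% and 7.87% of all tested genes, with a median log2 fold change of 0.09. The share in each direction lay near that of all genes, and the genes named from this list are given singly and not as a group that moved. None of 13 interferon ligands could be tested. 11 of them, including Ifnb1 and the alpha interferons Ifna1, Ifna2, Ifna4, Ifna5, Ifna9 and Ifna12, were without a count in all 6 libraries, and a count of 0 allows up to 3 per library (a level of 0.111 to 0.143 CPM with TMM factors, by counting error alone). Ifnk had 1 count in sham 3, and Ifng, interferon gamma, was counted 3 times in sham (1, 2 and 0) and 3 times in VSG (1, 0 and 2). Ligand transcripts were thus at or under the floor in both groups, and no difference was detectable at this depth.

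All 6 receptor genes measured above 0 and none passed edgeR's test, with 2 higher and 0 lower at an unadjusted p under 0.05 (all tested genes: 16.9% and 17.0%), 1 higher by DESeq2 (Ifnar2) and 0 by limma-voom. Without VSG 5 edgeR called 3 of the 6 higher, Ifnar2 (adjusted p = 0.0305), Ifngr1 (adjusted p = 0.0210) and Ifngr2 (adjusted p = 0.0280), and without any other library it called 0. Ifnar1 and Ifnar2, the type I receptor, measured log2 fold changes of 0.31 (adjusted p = 0.0923) and 0.60 (adjusted p = 0.0659), Ifngr1 and Ifngr2, the interferon gamma receptor, 0.51 (adjusted p = 0.152) and 0.33 (adjusted p = 0.343), and Ifnlr1 and Il10rb, the lambda receptor, 1.12 (SE 0.759, adjusted p = 0.333) and 0.22 (adjusted p = 0.513). The kinases Jak1, Jak2 and Tyk2 measured 0.30, 0.11 and 0.11 as log2 fold changes and did not pass, and DESeq2 called Jak1 higher.

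Among the 9 lower genes of this wider list, Cxcl10, the chemokine that draws T cells, measured 25.4, 14.1 and 12.8 CPM in sham and 4.52, 3.85 and 4.34 CPM in VSG (4.11-fold lower, log2 -2.04, adjusted p = 0.0114). Cmpk2, a nucleotide kinase whose gene neighbours Rsad2, fell by 2.07 on the log2 scale (adjusted p = 0.0153), the apolipoprotein L genes Apol9a and Apol9b by 2.09 and 1.63 (adjusted p = 0.0107 and 0.0286), and Dhx58 (LGP2), a helper of the RNA sensors, by 1.36 (adjusted p = 0.0114). Lgals3bp, a secreted glycoprotein, fell by 1.03 (adjusted p = 0.0167), and the ADP-ribosyltransferases Parp12 and Parp9 by 0.86 and 0.55 (adjusted p = 0.00811 and 0.0332). In the opposite direction, Socs3, a feedback inhibitor of cytokine receptors that STAT3 induces, measured 8.90, 4.39 and 6.19 CPM in sham and 48.3, 25.9 and 31.7 CPM in VSG (log2 2.44, SE 0.328, adjusted p = 0.0104). Ifitm2, a relative of Ifitm3, measured 46.2, 43.3 and 41.2 CPM in sham and 159.6, 63.3 and 141 CPM in VSG (log2 1.48, adjusted p = 0.0312), with the lowest VSG value in VSG 5, and it did not pass with limma on log2(FPKM + 1) (adjusted p = 0.0504). Irf5, a factor active in macrophages, measured a log2 fold change of 0.995 (adjusted p = 0.0350), and it did not pass with total-count scaling (adjusted p = 0.101). Oas1c, an OAS gene, fell by 1.81 (adjusted p = 0.0381), and it did not pass with limma-voom (adjusted p = 0.0647) or limma on log2(FPKM + 1) (adjusted p = 0.0637). The other 2 genes that passed, named after their values were seen, were Myd88 and Ptpn2, both higher, which did not pass with total-count scaling, limma-voom or limma on log2(FPKM + 1). In the 6 fits that each left out 1 library, Parp9 passed in 0 (adjusted p from 0.0560 to 0.114). Ifitm2 passed in 1 (without VSG 5), Irf5 in 1 (without sham 1), Oas1c in 1 (without sham 2) and Apol9b in 2 (without VSG 4 or VSG 5), with adjusted p of up to 0.129, 0.141, 0.128 and 0.0989. The other 7 genes named with values here passed in 4 or 5 of the 6, and Myd88 and Ptpn2 in 1 each (without VSG 5). The counts over this list without each library ran from 0 to 12 higher and from 1 to 8 lower, lowest without sham 3 or VSG 6.

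**Figure D4:**
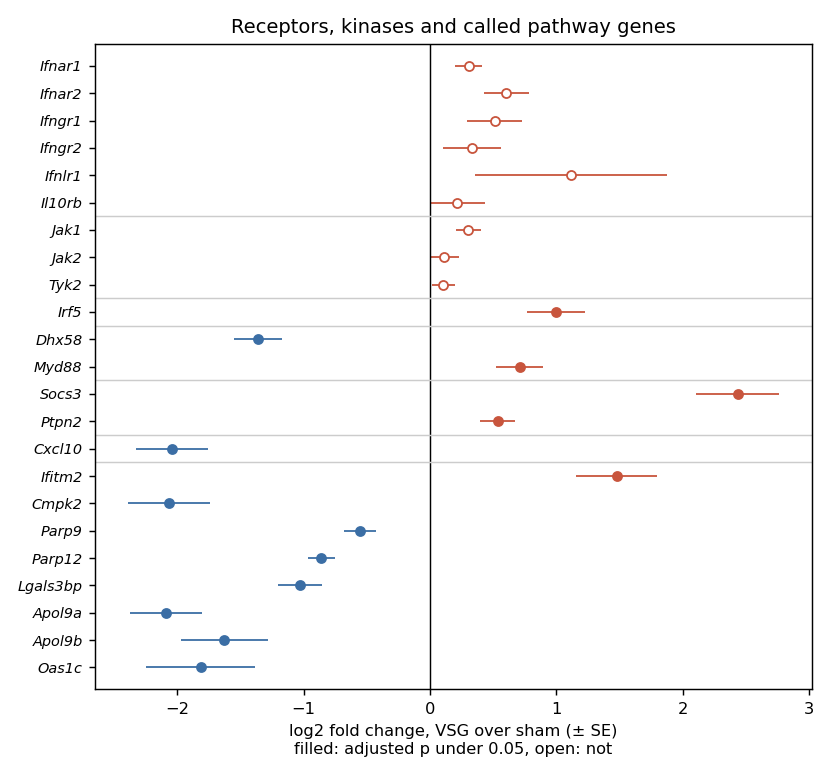
Log2 fold change of VSG over sham (x axis, no unit, bars ± SE) for the interferon receptors, the kinases, and the genes of the 90-gene list that passed the test (filled points, adjusted p under 0.05). The receptors and kinases lie right of 0 and are open, and Socs3 (2.44) and Cxcl10 (-2.04) are among those furthest from 0 on either side.

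Markers of blood and liver cell types moved with the groups too, where the shares of all tested genes were 6.79% higher and 7.87% lower. All 8 neutrophil markers were higher after VSG (4 of the 8 with limma-voom, and from 1 to 8 with 1 library left out, 1 without sham 2, sham 3 or VSG 6), with a summed level of 2.51 to 13.7 CPM in sham and 142 to 1753 CPM in VSG. Of 8 Kupffer cell and macrophage markers 4 were higher (Clec4f, Vsig4, Timd4 and Marco), with sums of 345 to 730 CPM in sham and 742 to 2165 CPM in VSG, and of 4 monocyte markers 1 was higher (2 with DESeq2, 0 with limma-voom). With 1 library left out, 0 to 5 of the macrophage markers were higher. VSG 5, with the lowest neutrophil sum of the VSG livers (142 CPM against 1753 and 807 CPM), had the lowest median of the 39 genes. Of 5 stellate cell markers all 5 measured below 0 and 1 was lower (Reln), against 3 with DESeq2 (Lrat, Reln and Dcn), 2 with total-count scaling (Lrat and Reln) and 4 at an unadjusted p under 0.05. In 4 of the 5 the groups did not overlap (80%, against 19.8% of all tested genes), with sums of 500.2 to 570.3 CPM in sham and 224 to 410.0 CPM in VSG. None of 6 endothelial, 4 conventional dendritic cell, 4 B cell and 7 tested T and NK cell markers passed with edgeR, DESeq2 or limma-voom, with 1 T and NK cell marker higher at an unadjusted p under 0.05 in edgeR and 1 higher by adjusted p without VSG 5 (Nkg7). Of the 8 hepatocyte markers 1 was higher (Fgb, a chain of fibrinogen), and DESeq2 called 2 higher and 1 lower. The endothelial sums were 252 to 309 CPM in sham and 252 to 314 CPM in VSG, and the T and NK cell sums were 7.14 to 7.58 CPM and 6.84 to 13.5 CPM. Of 2 tested markers of plasmacytoid dendritic cells, a main source of type I interferon, Siglech was lower, at 1.74, 0.868 and 1.44 CPM in sham and 0.498, 0.214 and 0.477 CPM in VSG (log2 -1.77, adjusted p = 0.0397), and Tcf4, which other cells also express, was not (log2 0.15). Siglech, at few counts per library, passed in 0 of the 6 fits that left out a library. No marker had 0 counts over all libraries. The part of these markers in the fall of the interferon-stimulated genes was not tested.

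**Figure D5:**
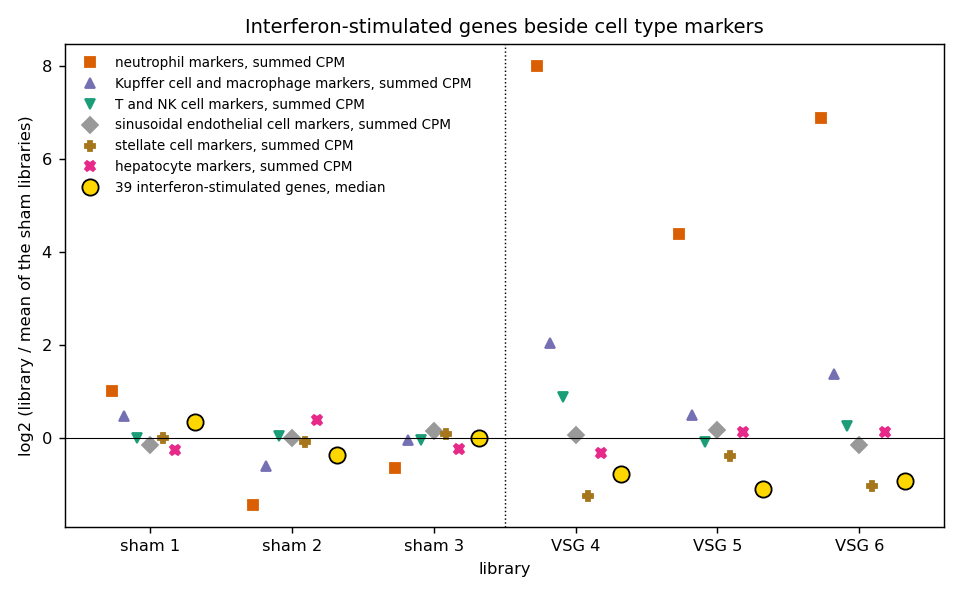
Log2 ratio of each library to the mean of the sham libraries (y axis) for the summed CPM of 6 sets of cell type markers and for the median of the 39 interferon-stimulated genes (gold circles), by library. The neutrophil squares rise in all 3 VSG livers, least in VSG 5, while the gold circles lie at -0.79, -1.11 and -0.93 there, and the endothelial and hepatocyte points lie on both sides of 0 in each group.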

How the data were processed

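RNA of 6 mouse livers was sequenced as poly(A) libraries, 3 from sham-operated and 3 from VSG-operated mice. The deposited values are whole-number counts per gene, which the authors made with FastQC 0.10.1, STAR 2.6.0 (mm10) and featureCounts 2.0.3, per their processing notes (the study's methods name another release of featureCounts), and which hold gene lengths beside them. The annotation release, strand option and treatment of reads with several hits are not given in the sources used here. Of 55385 gene identifiers, 55144 were found in GENCODE M21, which gave the symbols, and 54487 had the same version, start and end there. The authors' comparison used DESeq2.

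Here edgeR 4.0.16 in R 4.3.3 was used on the counts: filterByExpr (minimum count 10, total 15), TMM, and the quasi-likelihood test of VSG against sham with Benjamini-Hochberg adjustment over 14454 genes. DESeq2 1.42.0, limma 3.58.1 (voom, or log2(FPKM + 1)), other scalings and filters, and leaving out each library were the alternatives. Each library is a separate animal per the study's methods, and the labels number the livers. The 39 genes, the 90 pathway genes and the markers were chosen with earlier results of these data known. By rule, values per library are given for each of the 39 genes that passed, and values for the 4 transcription factors, the 3 sensors, the 5 most abundant genes, the ligands and receptors and up to 12 pathway genes by smallest p. Some planned genes are not reported here. Single values for other genes of the 39 are given as examples of the range. A planned comparison of protein sequences was not run, and transcripts were compared in 50-base stretches instead. Intervals and floors cover counting error only.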

Additional observations from a re-analysis of the deposited data

How the results depend on the processing

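No paired analysis was possible because the groups share no replicate numbers. Under 7 alternatives that kept all libraries, 18 to 26 of the 39 genes were lower and 0 higher, and 18 of the 21 passed in each, Mx1, Rtp4 and Ifi27 being the exceptions. Leaving out 1 library gave 4 (without VSG 6) to 18 lower genes, 0 to 12 higher and 1 to 8 lower pathway genes, and 48 to 1310 higher and 111 to 1422 lower genes in all, with the lowest counts without sham 3 or VSG 6. The 5 higher pathway genes became 2 with total counts, 11 with DESeq2, 3 with limma-voom and 2 with limma on log2(FPKM + 1). Over all genes, total counts gave 486 higher, and DESeq2 1516 higher and 1772 lower. Why these counts moved was not tested, beyond there being fewer samples in each fit that left out a library.

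Of 507 values of single genes from the list under alternatives, 424 kept their direction and side of the threshold, 56 no longer passed, 12 newly passed and 15 changed sign, all 15 in genes that had not passed. Oas2 turned to 0.022 with limma on log2(FPKM + 1) and above 0 without sham 1, sham 3 or VSG 5 (-0.36 to 0.24 over the libraries left out), and Mx2 without sham 1 (-0.48 to 0.28). Iigp1 turned to -0.13 with total counts, -0.0057 with every gene of at least 1 count, -0.055 with limma-voom and -0.054 with limma on log2(FPKM + 1), and below 0 without sham 3 or VSG 6 (-0.31 to 0.28). Parp14 turned to -0.13 with total counts, and below 0 without sham 2, sham 3 or VSG 6 (-0.11 to 0.30).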
